A study of Mus musculus with 4 samples.

Results

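Ins1, Ins2 and Iapp are 3 of the 30905 genes in single-cell counts from mouse pancreatic islets, and they were taken by gene symbol. Ins1 and Ins2 encode the insulins of the mouse, and Iapp encodes islet amyloid polypeptide, or amylin, the peptide that beta cells store and release together with insulin. The 3 genes were followed in beta cells, defined as cells in which Ins1 and Ins2 together made up at least 20% of the unique molecular identifiers (UMIs, each standing for 1 captured RNA molecule). There were 7859 such cells among 19963 kept cells. Single-cell libraries of 10x Genomics 3′ chemistry were made from islet cells of 4 groups, with 1 library per group. The groups were normal control (98 days of age), early db/db (70 days), late db/db (98 days) and late db/db with intervention (98 days). The db/db mouse lacks the long form of the leptin receptor and becomes obese and diabetic.

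All 4 genotype labels read db/db(C57BL/KsJ), the control's included, whereas the growth protocol names male C57BL/6 mice beside the C57BL/ksJ-db (db/db) mice. The treatment protocol states that db/db mice were fed until hyperglycaemic and then allocated at random. No source used here says what the intervention was or how many mice each library holds. The deposited name of the early db/db matrix could be taken for another control; its label was used. H2-Q2, a major histocompatibility gene chosen after its values were seen, had 3436 UMIs in control beta cells against 2 (early), 1 (late) and 5 (intervention) in the others. Diabetes, mouse strain and library preparation therefore cannot be told apart in a comparison with the control. Age cannot be told apart either where the early library (70 days) is set against the control or late db/db (98 days). The libraries are called control, early, late and intervention here. With 1 library per group no test between groups was possible, so folds and differences describe these libraries. All 95% intervals are exact and cover the error of counting UMIs or of drawing cells, not the variation between mice.

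The insulin gene of most mammals is a single gene, while mice and rats have Ins2, the counterpart of that gene, and Ins1, which arose from a copied transcript of it. The promoters of both insulin genes and of Iapp are bound in beta cells by PDX1, which recognises TAAT cores, by NEUROD1 with its partners, which recognise E-boxes, and, for insulin, by MAFA. Preproinsulin is folded in the endoplasmic reticulum and cut into insulin by the prohormone convertases PCSK1 and PCSK2, which also process the amylin precursor. Insulin is then packed in the granule with zinc brought in by SLC30A8. Amylin is the peptide of the islet amyloid seen in human type 2 diabetes, while the mouse form does not readily form amyloid.

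The promoter set used here held no entry for Ins2. Shown are the promoters of Ins1 and Iapp, whose messages went in opposite directions against the control. Each is the 250 bases before the transcription start in RefSeq (GRCm38.p6), on the plus strand, at chr19:52264047-52264296 for Ins1 and chr6:142298175-142298424 for Iapp. Capitals mark E-boxes (CANNTG) and TAAT, on either strand.
Ins1: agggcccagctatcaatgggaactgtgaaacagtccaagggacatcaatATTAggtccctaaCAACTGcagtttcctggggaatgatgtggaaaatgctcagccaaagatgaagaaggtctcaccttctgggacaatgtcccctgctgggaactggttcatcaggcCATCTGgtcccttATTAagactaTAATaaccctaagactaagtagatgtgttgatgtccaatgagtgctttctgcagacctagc
Iapp: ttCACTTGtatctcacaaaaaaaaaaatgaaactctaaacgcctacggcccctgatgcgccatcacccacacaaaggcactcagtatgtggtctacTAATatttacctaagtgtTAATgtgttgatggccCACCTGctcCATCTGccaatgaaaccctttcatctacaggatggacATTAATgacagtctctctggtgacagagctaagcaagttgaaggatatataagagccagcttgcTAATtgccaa
The Ins1 window held 2 E-boxes and 3 TAAT, and the Iapp window held 3 E-boxes and 5 TAAT, of which the pair at bases -74 to -69 overlap. Both windows held 1 E-box that reads CAGATG on the minus strand, at bases -84 to -79 of Ins1 and -111 to -106 of Iapp, counted back from the start. Among 32851 promoter windows of this length, 66.2% held an E-box, 54.9% a TAAT and 14.4% a CAGATG on either strand. The E-box and TAAT are thus common in any promoter of this length, and the matches are descriptions of the letters.

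In GENCODE M21 (GRCm38), Ins1 lies on chromosome 19 (52264297 to 52265476, plus strand), Ins2 on chromosome 7 (142678656 to 142743381, minus strand) and Iapp on chromosome 6 (142298423 to 142303961, plus strand). No exon of another gene overlapped theirs. The annotated transcripts of Ins1 and Ins2 shared 7 identical windows of 50 bases and none of 100 bases, and their longest identical run was 56 bases. Reads within such a run cannot be given to either gene, which could affect Ins1 and Ins2 counts but not Iapp.

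The libraries differed in depth and make-up. The kept cells numbered 4458 to 5983 per library with medians of 6201 to 26386 UMIs per cell, and beta cells made up 52.3% of kept cells in the control, 33.5% in the early library, 12.5% in the late library and 66.0% in the intervention library. The beta cells numbered 2330, 1544, 749 and 3236 in that order, and their median UMI counts were 49714, 56417, 88689 and 41861. Between 95.1% and 99.4% of them lay in the 7 clusters, made without hormone genes, in which at least 10 of 15 beta cell markers were raised. All 15 markers were higher in beta cells than in non-endocrine cells in each library, although their summed level was 3305 CPM (counts scaled to a common total) of all UMIs in the control against 1286, 1564 and 2136 in early, late and intervention beta cells. The beta cells of the libraries lay in different clusters, with 2091 of the control in cluster 2, 1127 of the early library in cluster 7 and 326 in cluster 24, and 564 of the late library in cluster 7. Intervention cells lay mostly in cluster 6 (2080) and cluster 27 (927). Clusters 1, 7, 24 and 27 were left without a class name, because a class other than the best-scoring one led their 10 leading genes. The best-scoring class was beta in clusters 1, 7 and 27 and acinar in cluster 24. Most early and late beta cells thus lay in clusters without a class name. Cluster 24 had 10 of 15 beta markers raised and also 12 of 13 acinar markers. Its early beta cells had a median of 28607 UMIs, against 59987 in cluster 7, and median Ins1 shares of 7.72% and 7.19%. Between 0 and 3 beta cell barcodes were shared by any pair of libraries.

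Ins1 was the gene that differed most of the 3. It took 18.0% of all UMIs of control beta cells, 4.92% in the early library, 4.35% in the late library and 10.8% in the intervention library. Because the insulins fill so much of a beta cell's RNA, levels are also given per 1000 UMIs of genes other than 7 hormone genes and the mitochondrial genes. On that scale the median control cell held 626.9 Ins1 UMIs (10th to 90th percentile of cells, 399.3 to 908.4). The median was 92.3 (13.4 to 360.7) in the early library, 60.7 (8.73 to 273.3) in the late library and 278.7 (61.3 to 622.2) in the intervention library. The ranges of the control and of the early and late db/db libraries did not overlap between the 10th and 90th percentiles, while that of the intervention library overlapped all 3. No beta cell in any library was without an Ins1 UMI.

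Summed over beta cells, the log2 ratio of Ins1 in the late library against the control was -2.64 (95% interval -2.65 to -2.64), a 6.25-fold lower level. With all UMIs as the denominator it was -2.05, a 4.13-fold lower level. With non-hormone UMIs the ratio was -2.27 in the early library against the control and -0.37 in late against early. In the intervention library Ins1 was 2.83-fold above the late library (log2 1.5) and 2.21-fold below the control (log2 -1.15). Only 9 of the 3446 genes entered had a larger ratio than Ins1 between the intervention library and late db/db, and 37 of 4178 had a lower ratio than Ins1 between late db/db and the control. The control, and in another pair late db/db, is shared by these comparisons.

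Ins2 differed less. It took 46.6% of all UMIs in control beta cells, 43.7% in the early library, 39.1% in the late library and 36.5% in the intervention library. Per 1000 non-hormone UMIs, the median cell held 1669 (10th to 90th percentile, 1193 to 2132) in the control, 1239 (634.3 to 1858) in the early library, 940.3 (480.2 to 1440) in the late library and 1000 (533.3 to 1538) in the intervention library. The ranges of all 4 libraries overlapped. The log2 ratio was -0.85 in the late library against the control and -0.50 in the early library. Against late db/db the intervention library stood at 0.09 with non-hormone UMIs as the denominator and at -0.10 with all UMIs, so the direction of Ins2 between these libraries followed the denominator.

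Iapp was higher in all 3 db/db libraries than in the control. It took 3.94% of all UMIs in control beta cells, 11.7% in the early library, 11.2% in the late library and 12.3% in the intervention library. Per 1000 non-hormone UMIs the median cell held 139.6 (10th to 90th percentile, 91.3 to 197.0) in the control, 314.7 (189.8 to 434.6) in the early library, 266.2 (137.2 to 373.3) in the late library and 306.3 (141.2 to 462.4) in the intervention library. The control's range overlapped only the lower ends of the others, and the 3 db/db ranges overlapped each other widely. The log2 ratio against the control was 1.17 in the early library, 0.91 in the late library and 1.23 in the intervention library, and it was 0.32 in the intervention library against the late library. The value in the late library lay under a 2-fold difference on this scale and was 1.51 with all UMIs as the denominator.

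**Figure D1:**
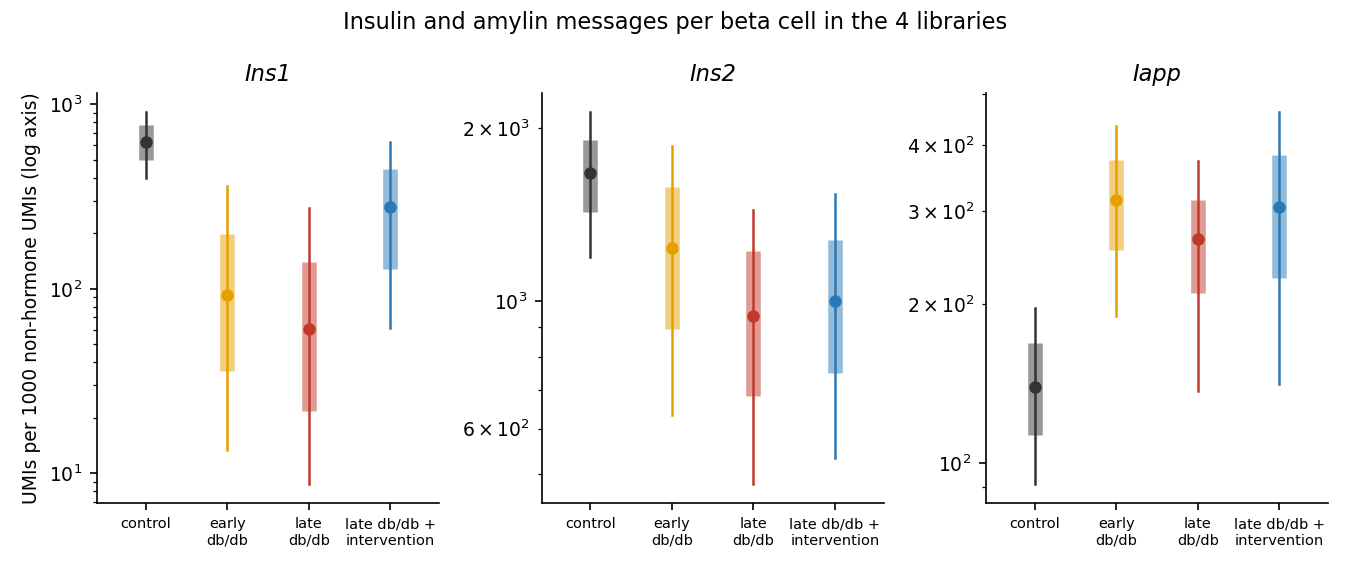
UMIs of Ins1, Ins2 and Iapp per 1000 non-hormone, non-mitochondrial UMIs in beta cells of the 4 libraries, on log axes that differ between panels. Points are medians over cells, thick bars the 25th to 75th and thin lines the 10th to 90th percentiles. The median for Ins1 is 626.9 in the control and 60.7 in the late library, while that for Iapp is 139.6 and 266.2.

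A gene counted as different when its ratio reached 2-fold, and genes under 50 CPM on the higher side were not entered. From here on CPM are counts scaled to a common total of non-hormone, non-mitochondrial UMIs. In late db/db against the control, Ins1 was the only 1 of the 3 genes past 2-fold on this scale. It was lower, as were 11.1% of all genes entered (4.38% were higher). That Iapp did not pass rests on the denominator, since its log2 ratio was 1.51 with all UMIs and 1.2 with TMM scaling, both past 2-fold. In early db/db against the control Ins1 was lower, with 16.5% of genes, and Iapp higher, with 5.32%. In the intervention library against the control Ins1 was again lower (7.76% of genes) and Iapp higher (4.08%). That call of Ins1 rests on the denominator, since its log2 ratio was -0.73 with all UMIs and -0.87 with TMM scaling, both under 2-fold. In the intervention library against the late library Ins1 alone of the 3 passed, with 0.842% of genes higher and 0.493% lower. None of the 3 passed in late against early, where 0.231% of genes were higher and 0.752% lower. The median log2 ratio of all genes entered was -0.29 in the late library against the control on this scale and 0.31 with all UMIs as the denominator. Relative to the median gene, the ratios of Ins1, Ins2 and Iapp in that comparison were -2.35, -0.56 and 1.2.

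The share of Ins1 among insulin UMIs compares both genes within a cell, so the choice of denominator does not enter it. A 3′ library counts 1 tag per molecule, so it does not need a correction for transcript length. In the median control cell 27.5% of insulin UMIs came from Ins1 (interval of the median 27.3% to 27.7%). The median was 7.55% (7.04% to 7.96%) in the early library, 6.70% (6.10% to 7.38%) in the late library and 22.9% (22.4% to 23.4%) in the intervention library. The intervals of early and late db/db overlapped each other, and those of the control and the intervention library were apart from the rest. In pooled UMIs there were 2.60 Ins2 UMIs for each Ins1 UMI in the control, 8.87 in the early library, 8.98 in the late library and 3.37 in the intervention library.

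The spread between cells also differed between libraries. From the 10th to the 90th percentile the Ins1 share ran from 22.3% to 32.1% in the control, 1.38% to 20.9% in the early library, 0.986% to 19.8% in the late library and 7.80% to 31.9% in the intervention library. Of control cells, 94.3% lay above the 90th percentile of the early library and 95.9% above that of the late library. The coefficient of variation over cells was 0.161 in the control, 0.807 in the early library, 0.872 in the late library and 0.419 in the intervention library. The variance over cells was 164 times that of binomial counting in the control and 616.7, 926.8 and 303 times in the others. Cells with an Ins1 share under 5% made up 0.129% of control beta cells (3 cells), 36.5% in the early library (564 cells), 38.9% in the late library (291 cells) and 5.07% in the intervention library (164 cells). Such cells, with nearly all insulin message from Ins2, were thus counted in all 4 libraries.

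The Ins1 share of intervention cells covered both ends. Of its 3236 beta cells, 42.9% lay within the control's 10th to 90th percentile, 48.0% below it and 9.09% above it. In late db/db, 6.41% of cells lay within the same range and 92.7% below it. Cells of the intervention library with a share of at least 30% made up 17.2%, against 24.6% in the control, 1.36% in the early library and 2.14% in the late library. The control library held 49.8% of its cells between 25% and 30%, where the intervention library had 24.0%. Within the intervention library the median Ins1 share was 25.45% in cluster 6 and 16.07% in cluster 27, and the median Iapp per 100 insulin UMIs was 18.54 and 34.74.

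**Figure D2:**
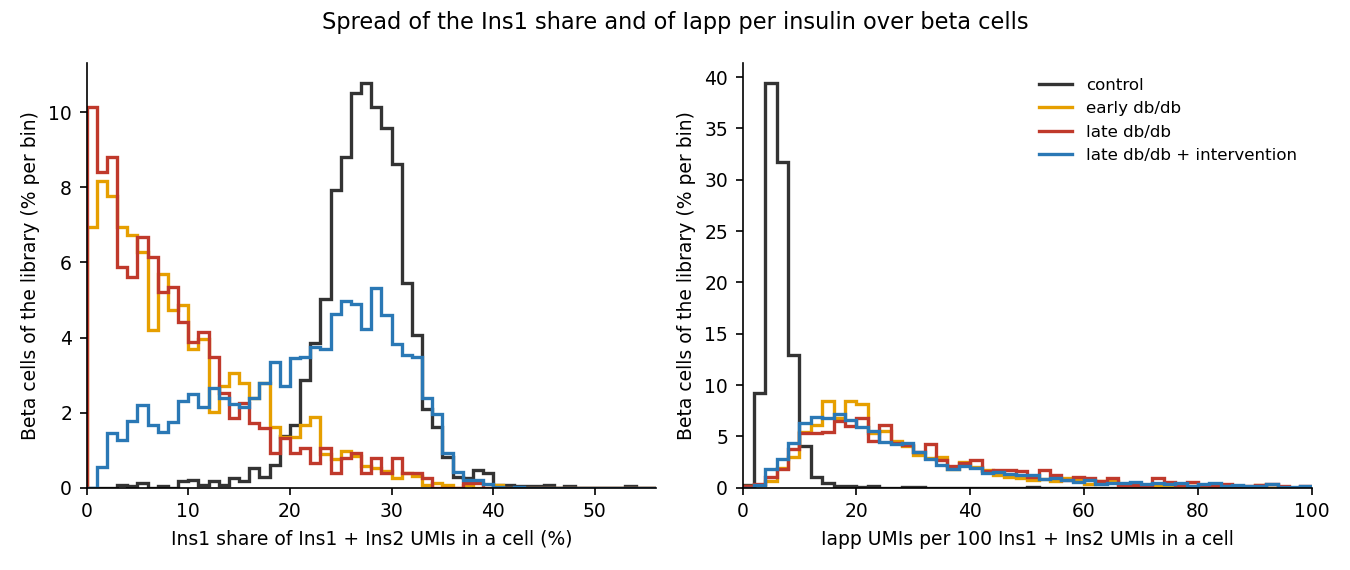
Percent of the beta cells of each library by the Ins1 share of insulin UMIs (left, bins of 1 percentage point) and by Iapp UMIs per 100 insulin UMIs (right, bins of 2, shown up to 100). The control forms a narrow peak with a median Ins1 share of 27.5%, early and late db/db pile up at low shares, and the intervention library spreads over both. On the right the 3 db/db libraries overlap widely, to the right of the control.

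Amylin message relative to insulin message was higher in each db/db library than in the control, and the db/db libraries were close to each other. The median cell held 6.08 Iapp UMIs per 100 insulin UMIs in the control (10th to 90th percentile, 4.06 to 9.14). The median was 22.1 (11.4 to 50.8) in the early library, 24.8 (11.0 to 55.1) in the late library and 22.4 (10.2 to 55.0) in the intervention library. The intervals of the medians were 5.95 to 6.16 in the control and 21.5 to 23.2 in the early library. They were 23.6 to 26.1 in the late library and 21.8 to 23.0 in the intervention library. These intervals cover the drawing of cells within a library and do not rank the db/db groups. With a cut at 40% insulin the median was 19.6 in the early library and 19.1 in the late library, so their order followed the setting. In the early, late and intervention libraries 95.3%, 94.5% and 93.0% of cells lay above the control's 90th percentile. Of intervention cells, 77.3% lay within the 10th to 90th percentile of the late library. The intervention library thus stood between the control and late db/db in its Ins1 share, with most cells in the range of the late library for Iapp per insulin.

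The cut at 20% insulin removes cells with little insulin message, so the insulin share itself is partly fixed by the rule. Cells close to the cut carried high amylin ratios in the db/db libraries. Insulin UMIs define these slices and are also the denominator of the ratio, so the slicing enters these values. Just inside the cut, at 20% to 25% insulin, the median Iapp per 100 insulin UMIs was 7.26 in 6 control cells, 91.2 in 54 early db/db cells, 75.4 in 44 late db/db cells and 73.1 in 147 intervention cells. Just outside, at 15% to 20%, it was 10.9 in 22 control cells, 92.4 in 35 early db/db cells, 110.4 in 35 late db/db cells and 63.0 in 111 intervention cells. Of the cells just outside, 17, 32, 32 and 83 lay in the clusters with most beta markers raised. The median Ins1 share just outside was 23.1%, 6.77%, 4.58% and 14.9% in that order.

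Across the beta cells of a library, Ins1 and Ins2 levels went together and Iapp went with neither in the db/db libraries. Spearman's rho between Ins1 and Ins2 per non-hormone UMI was 0.807 in the control (2330 cells), 0.451 in the early library (1544 cells), 0.470 in the late library (749 cells) and 0.734 in the intervention library (3236 cells). Between Ins2 and Iapp it was 0.27 in the control and -0.143, -0.159 and -0.089 in the other 3 in the same order. The Ins1 share and Iapp per insulin had rho of -0.159, -0.226, -0.196 and -0.439. These values share a denominator or a library, are weak in part, and are descriptions over cells. The Ins1 share also went with the percent of mitochondrial UMIs, with rho of -0.590 in the control and -0.155, -0.221 and -0.332 in the other 3, and the part of RNA quality in it was not tested.

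Splitting the beta cells of each library into quintiles by Ins1 share shows what differed along it. In late db/db the lowest quintile had a median share of 0.981% and the highest 19.8%, and Ins1 went from 9.58 to 307.7 UMIs per 1000 non-hormone UMIs while Ins2 went from 861.0 to 1103 and Iapp from 265.0 to 275.5. The split itself sets how far Ins1 ranges relative to Ins2. Among intervention cells the median share went from 7.80% to 31.9%, Ins2 from 817.5 to 1195 and Iapp from 359.0 to 288.5. Iapp per 100 insulin UMIs went from 40.5 to 16.4 there, from 28.4 to 19.1 in the early library, from 30.4 to 19.5 in the late library and from 7.51 to 5.75 in the control. Its denominator includes the Ins1 UMIs by which the cells were split, so the split enters this fall. Per 1000 non-hormone UMIs Iapp went from 323.2 to 325.1 in the early library and from 138.2 to 152.7 in the control. Median UMIs per cell went from 86240 to 96501 in the late library and from 38659 to 43220 in the intervention library. The median mitochondrial percent went from 5.50% to 2.36% in the control and from 3.6% to 3.13% in the late library. Ppy, the pancreatic polypeptide gene of gamma cells, was chosen with Gcg and Sst after their values were seen. Summed over the cells of a quintile, Ppy was higher at low shares. It went from 3790 to 1222 CPM in the control, 6436 to 1761 CPM in the early library, 4516 to 519.3 CPM in the late library and 2150 to 754.1 CPM in the intervention library. Medians over the cells of a quintile were not computed for Ppy, so a few Ppy-rich cells could carry these sums. Gcg, the glucagon gene of alpha cells, had log2 ratios of -0.81 to -0.01 and Sst of -2.25 to 0.66. The part of these messages, of depth and of RNA quality in what differs along the Ins1 share was not tested.

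Mafa, which encodes the insulin gene activator MAFA of mature beta cells, differed most along the Ins1 share among the transcription regulators in the db/db libraries. From the lowest to the highest quintile it went from 6.69 to 109.6 CPM in the early library (39 and 564 UMIs), from 2.76 to 140.5 CPM in the late library (15 and 712 UMIs) and from 16.0 to 248.7 CPM in the intervention library (159 and 2131 UMIs). In the control it went from 807.8 to 1170 CPM. The log2 ratios of highest to lowest quintile were 4.03 (interval 3.56 to 4.54), 5.67 (4.94 to 6.51), 3.96 (3.73 to 4.20) and 0.53 (0.48 to 0.59). Even the highest quintile of each db/db library lay below the lowest quintile of the control. H2-Q2 had 0 UMIs in the lowest and highest quintiles of the 3 db/db libraries, against 641 and 675 in those of the control.

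Pdx1, which encodes a shared activator of the 3 genes, differed less than Mafa along the Ins1 share. It went from 113.1 to 146.9 CPM in the early library, 137.1 to 177.0 CPM in the late library, 124.9 to 220.4 CPM in the intervention library and 241.8 to 241.4 CPM in the control. Neurod1 had log2 ratios of 0.08 to 0.36 and Nkx6-1 of 0.21 to 0.39 over the 4 libraries. Among 16 to 18 regulators with at least 500 UMIs, Mafa was the only one at least 2-fold higher in the highest quintile, in each of the 3 db/db libraries. Of all genes with that many UMIs, 0.164% were so in the early library, 0.173% in the late library and 0.866% in the intervention library. The shares at least 2-fold lower were 0.0896%, 0.126% and 0.534%, and in the control 0.483% of genes were higher and 0.508% lower. Of 18 genes for prohormone conversion and the granule, Slc30a8 (the zinc transporter) was the only one in those libraries. It went from 94.6 to 258.3 CPM in the late library and from 164.4 to 757.1 CPM in the intervention library, against 1314 to 1375 CPM in the control. Slc2a2, the glucose transporter of beta cells, was chosen with Ucn3 after their values were seen and went from 20.2 to 103.6 CPM in the late library and from 60.1 to 384.2 CPM in the intervention library. Ucn3, another marker of mature beta cells, went from 218.2 to 230.5 CPM and from 247.9 to 289.0 CPM in these libraries, and from 183.1 to 161.4 CPM in the early library (log2 -0.18, interval -0.31 to -0.05).

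**Figure D3:**
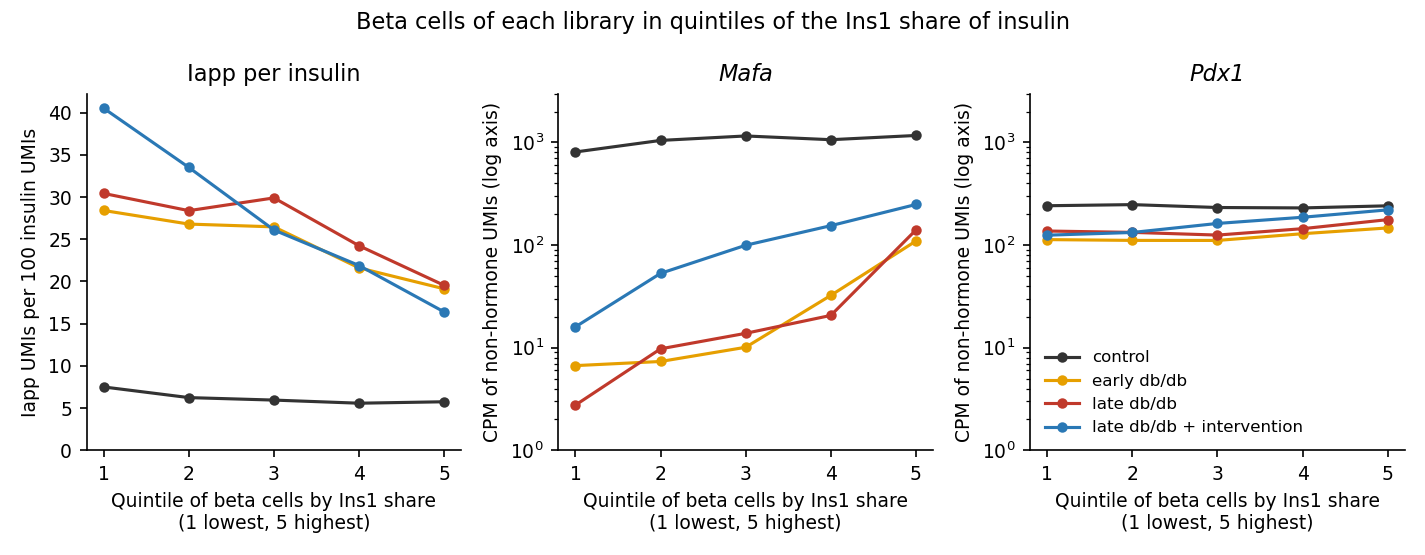
Iapp UMIs per 100 insulin UMIs (left), and Mafa (middle) and Pdx1 (right) in CPM of non-hormone UMIs on log axes, for the beta cells of each library in quintiles of the Ins1 share, from 1 (lowest) to 5 (highest). Mafa goes from 2.76 to 140.5 CPM in the late library and from 807.8 to 1170 CPM in the control. Pdx1 goes from 137.1 to 177.0 CPM in the late library. The insulin denominator on the left includes the Ins1 UMIs by which the cells were split.

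The genes most like the Ins1 share over cells, by the lowest of the 4 rho among 2157 genes ranked, were Gng12, Prss53, Pcsk2, G6pc2 and Ero1lb. Gng12, a G protein subunit, had rho of 0.414 in the control, 0.274 in the early library, 0.297 in the late library and 0.405 in the intervention library. G6pc2, the islet glucose-6-phosphatase, had rho of 0.18, 0.341, 0.408 and 0.515, and Ero1lb, an oxidase of the endoplasmic reticulum that aids proinsulin folding, had 0.374, 0.176, 0.282 and 0.538. The most unlike were Fxyd6 and the ribosomal protein genes Rpl13, Rps3a1, Rpl3 and Rpl9, with rho between -0.326 and -0.120. For Iapp per insulin the most like were Cd63, Rps2, Rpl23, Rpl32 and Tpt1, and the most unlike included Pcsk2, Slc30a8, Ccnd2 and Ero1lb. Cd63, a tetraspanin of granule and lysosome membranes, had rho of 0.233, 0.449, 0.471 and 0.545. Pcsk2 and Ero1lb stood in both sets with opposite sign. Most of these rho are weak.

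Genes acting on insulin and amylin were also compared between libraries, in 5 lists. Of 13 regulators of transcription entered in the late library against the control, 5 were lower by 2-fold or more and 0 higher, where 11.1% of all genes were lower and 4.38% higher, for a median log2 ratio of -0.96 against -0.29 for all genes. Mafa was at 36.6 CPM against 1051 CPM (log2 -4.84), Mlxipl, the glucose-sensing factor ChREBP, at -1.55, Nkx6-1 at -1.35 and Neurod1 at -1.16. Pdx1 was at -0.74. In the intervention library against the late library only Mafa passed among 13 (0.842% of all genes were higher), at 110.2 CPM against 36.6 CPM (log2 1.59), and its ratio to the control was still -3.25.

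Of 17 genes for prohormone conversion and the granule, 7 were higher and 2 lower in the late library against the control. Of all genes entered there, 4.38% were higher and 11.1% lower. Vgf, a granule peptide precursor, had a log2 ratio of 3.90, the granins' Chgb 2.03 and the amidating enzyme gene Pam 1.51. Slc30a8 was at -3.31 and Pcsk1 at -1.05, while Pcsk2 was at -0.47 and Cpe, the gene of the carboxypeptidase that trims both hormones, at -0.24. Slc30a8 was the only one of the 17 past 2-fold in the intervention library against the late library, at 1.56. There 0.842% of all genes were higher and 0.493% lower. In the late library against the control, 4 of 20 folding and translocation genes were higher (4.38% of all genes) and 1 lower (11.1%). The higher were Prdx4 (2.0), Sec11c of the signal peptidase (1.74), Ssr4 (1.33) and Dnajc3 (1.28), which was named after its value was seen, and the lower was Ero1lb (-2.14). None of the 20 passed in the intervention library against the late library, where 0.842% of all genes were higher and 0.493% lower. Ero1lb was at 0.99 there, and the chaperone gene Hspa5, also named after its value was seen, was at -0.83.

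Of 8 genes for proteins that bind insulin mRNA, 1 was lower in the late library against the control and 0 were higher. The lower one was Elavl4 (-1.79), which encodes the RNA-binding protein HuD. In that comparison 11.1% of all genes were lower and 4.38% higher. Tia1, Ptbp1 and Hnrnpl were at -0.96, -0.86 and -0.72. Of 4 genes for receptors and clearance, Igf1r was lower (-2.02, with 11.1% of all genes), and Irs2, Sorl1 and Bace2 were at 0.91, 0.67 and -0.45. The median log2 ratio was -0.70 for the first and 0.11 for the second of these lists. Elavl4 and Igf1r lay under 50 CPM in the late library and were entered through their level in the control. The shares of all genes rest on the same rule of entry. In late against early no gene of the 5 lists passed, where 0.231% of all genes were higher and 0.752% lower.

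Outside beta cells, insulin message (Ins1 and Ins2 counted together) and Iapp message were found in nearly every cell. Cells with an Ins1 UMI were not counted on their own. In 6 non-endocrine classes together (endothelial-, macrophage-, mural-, fibroblast-, B- and T/NK-like cells) Ins1 and Ins2 made up 2.0% of UMIs in the control, 0.360% in the early library, 0.729% in the late library and 4.95% in the intervention library. All of these cells had an insulin UMI, and 96.6% to 100% had an Iapp UMI. Cells of these classes are not known to express the genes, so this is read as the level of free RNA, and it was highest in the intervention library. The Ins1 share of this free insulin RNA was 24.4% in the control, 9.16% in the early library, 8.66% in the late library and 21.4% in the intervention library. Pooled over beta cells the Ins1 share was 27.8%, 10.1%, 10.0% and 22.9%, so the order of the libraries was the same in both. Pooled Iapp per 100 insulin UMIs was 6.66, 29.5, 27.6 and 33.1 in non-endocrine cells and 6.11, 24.2, 25.9 and 26.1 in beta cells. The median non-endocrine cell had 6.52, 26.8, 27.5 and 29.95. A single cell held 7.71% of the non-endocrine Iapp UMIs in the early library and 6.92% in the intervention library. The 3 intervention classes of at least 30 cells ran from 28.4 to 31.0, so the pooled value of that library lay above them. Between classes of 1 library the Ins1 share ran from 23.7% to 25.6% over 3 classes in the control. It ran from 7.82% to 10.7% over 6 classes in the early library and from 8.01% to 9.0% over 6 in the late library. In the intervention library it ran from 21.2% to 22.35% over 3 classes.

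Subtracting the free RNA from each beta cell left the medians close to where they were. The folds between libraries were also similar, with the Ins1 share 4.13 times higher in the control than in the late library after subtraction and 4.10 times before. The largest move was in the intervention library, where Iapp per 100 insulin UMIs went from 22.4 to 21.

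Iapp stood apart from insulin in the cluster rich in Sst, the somatostatin gene of delta cells. In this cluster Iapp took 2.93% of UMIs in the control (483 cells), 3.89% in the early library (295 cells), 3.56% in the late library (131 cells) and 4.21% in the intervention library (266 cells), while insulin took 1.68%, 0.481%, 0.586% and 3.02%. The ratio of Iapp to insulin was 26.2, 27.5, 22.0 and 4.20 times the pooled ratio of the non-endocrine cells of the same library. Its insulin had an Ins1 share of 24.2%, 8.53%, 7.64% and 20.2%, near that of free RNA. The most Iapp-rich cell held 1.06% to 7.09% of the cluster's Iapp UMIs, so the level does not rest on a few cells. Mouse delta cells are known to express Iapp. The cluster was left without a class name because other markers ranked above those of delta cells.

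Against the control, Iapp differed less in the Sst-rich cluster than in beta cells. Per 1000 non-hormone UMIs it was 44.5 in the control, 62.4 in the early library, 54.8 in the late library and 69.6 in the intervention library. The log2 ratio of the late library to the control was 0.30 (interval 0.287 to 0.310) in this cluster and 0.91 in beta cells. For early db/db the values were 0.49 and 1.17, and for the intervention library against the control 0.64 and 1.23. The intervention library against the late library had 0.35 and 0.32, so there the cluster did not differ less. Free RNA was also subtracted at the pooled Iapp per insulin of the non-endocrine cells, scaled by the cluster's insulin UMIs. In the intervention library that reference lay above the 3 listed classes, and another reference was not tried. Per 1000 non-hormone UMIs, Iapp in the cluster was then 42.8 in the control and 60.2 in the early library. It was 52.3 in the late library and 53.1 in the intervention library. The log2 ratio of the intervention library in the cluster was then 0.02 against the late library and 0.31 against the control, while the ratios of the late and early libraries to the control were 0.29 and 0.49. Whether these differences between cell classes exceed the variation between mice was not tested.

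Alpha-like cells had insulin RNA close in make-up to free RNA. Their Ins1 share of 24.3% in the control, 8.42% in the early library, 8.03% in the late library and 20.7% in the intervention library was that of the non-endocrine cells within 1 percentage point. Their pooled Iapp per insulin was 2.23, 1.70, 1.75 and 0.938 times that of non-endocrine cells. Per 100 insulin UMIs the median alpha-like cell had 8.84, 32.6, 27.2 and 29.8 Iapp UMIs. The median non-endocrine cell had 6.52, 26.8, 27.5 and 29.95. A single cell held 6.80%, 5.77%, 14.2% and 1.02% of the alpha-like Iapp UMIs in the same order. The acinar-like cells of the early library had 83.8 Iapp UMIs per 100 insulin UMIs when pooled, but 44.0% of these Iapp UMIs lay in a single cell and the median cell had 26.5. In the cluster rich in Ppy and Pyy, hormone genes of gamma cells, 55 control cells lay below the insulin cut with a pooled Ins1 share of 12.8% and a median of 24.0%, and a single cell held 19.1% of their insulin UMIs. Another 141 control cells of this cluster lay above the cut, with a median of 25.1%.

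**Figure D4:**
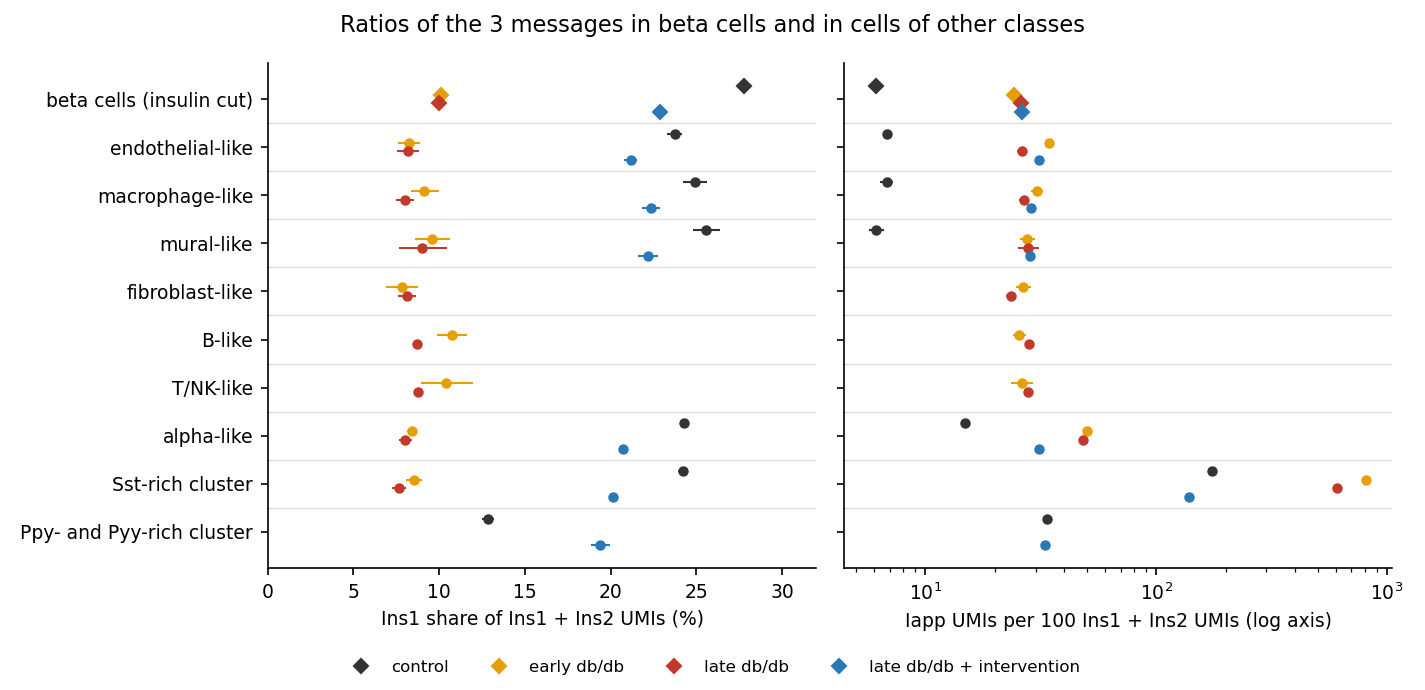
Ins1 share of insulin UMIs in percent (left) and Iapp UMIs per 100 insulin UMIs on a log axis (right), pooled over the cells of each class and library. Diamonds are beta cells by the insulin cut, circles other classes of at least 30 cells, and bars exact 95% intervals for counting, which are often narrower than the symbol. The Ins1 share of most classes lies near that of the library's own beta cells, from 23.7% to 25.6% in the control's non-endocrine classes, and the Sst-rich cluster lies far to the right for Iapp.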

How the data were processed

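The authors deposited matrices of raw UMI counts, whole numbers for each gene and barcode. Per the submitters' processing notes, mm10, CASAVA 1.8, Cell Ranger and Seurat were used, and the software version is 3.0.0 per the file headers. No source used here names the annotation. Barcodes were kept with at least 1000 UMIs, 500 genes and at most 20% mitochondrial UMIs. The highest Scrublet scores (scanpy 1.11.5) were removed as doublets at 0.8% per 1000 cells. Leiden clusters (igraph 0.11.9) were made from 2000 variable genes without hormone genes, with 30 principal components and 15 neighbours.

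A cluster was named from the class with the largest share of its listed markers raised, and it stayed unnamed where another class led its 10 leading genes. This naming replaced a planned score after the data were seen, and it decides only the class names, not the beta cells, which the insulin cut defines. Class names may differ from the study's own.

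Shares carry Clopper-Pearson intervals, medians order-statistic intervals and ratios exact conditional binomial intervals. CPM were computed over genes other than 7 hormone and the mitochondrial genes, except for the beta cell markers (all UMIs). Genes under 50 CPM in the higher of both libraries, or under 50 UMIs in their sum, were left out of a comparison. The ratio table and the ranking by Spearman's rho were tested on simulated data. The genes named were the 3 genes, the 5 most like and unlike by rho (1 of them is not reported here), up to 4 of the genes entered of each list with the largest ratio in late db/db against the control, Mafa, Pdx1, Neurod1, Pcsk1, Pcsk2, Cpe and Pam, and those stated as chosen after seeing their values. The genes, lists, markers and doublet rate were chosen with earlier results of these data known.

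Alternatives were another insulin cut, cluster membership, a UMI minimum of 5000, cells of 20000 to 60000 UMIs, no doublet removal, subtraction of free RNA, pooled UMIs, at most 10% mitochondrial UMIs, other denominators and other gene minimums. Beta cells outside the Ppy- and Pyy-rich cluster, and free RNA subtracted in the Sst-rich cluster, were added after seeing the data.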

Additional observations from a re-analysis of the deposited data

How the results depend on the processing

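The order of the libraries in the Ins1 share (control, intervention, early db/db, late db/db, from high to low) held in each of the 10 other settings, and the control had the lowest Iapp per insulin in all of them. The Ins1 share was 2.75 to 4.34 times higher in the control than in the early library and 2.28 to 3.93 times higher in the intervention library than in the late library. Iapp per insulin was 3.15 to 4.36 times higher in the late library than in the control. Between the intervention library and late db/db that ratio ran from 0.849 to 1.01, so their order followed the setting. The order of early and late db/db in Iapp per insulin also followed the setting, and it turned with a cut at 40% insulin. Values that moved beyond the interval of the main median were as follows. With a cut at 40% insulin the median Ins1 share was 8.35% in the early library, 8.25% in the late library and 25.4% in the intervention library, with Iapp per 100 insulin UMIs of 19.6, 19.1 and 18.6. A cut at 10% gave 23.4 Iapp in the intervention library. Clusters with most beta markers raised, with no cut, gave 23.7, 26.8 and 23.6 Iapp in the 3 db/db libraries and an Ins1 share of 22.25% in the intervention library. Cells of 20000 to 60000 UMIs gave an Ins1 share of 26.1% in the control, 6.02% in the early library and 5.79% in the late library, and 23.3 Iapp in the early library. Pooled UMIs gave 27.8%, 10.1% and 10.0% in these 3 libraries, with 24.2 Iapp in the early library and 26.1 in the intervention library. In the intervention library Iapp was 21 with free RNA subtracted and 23.5 with at most 10% mitochondrial UMIs. The cause was not tested, except that another cut or range takes other cells and a pooled value weights cells by their UMIs.

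The log2 ratio of Ins2 in the intervention library against the late library reversed to -0.10 with all UMIs as the denominator. The other 44 log2 ratios of the 3 genes under other settings kept their direction but moved beyond their counting intervals. For Ins1 in the late library against the control they were -2.05 with all UMIs, -2.36 with TMM scaling and -2.74 with clusters and no insulin cut. Counts of genes at least 2-fold apart depended on the minimum level by construction. With at least 200 CPM, 76 were higher and 92 lower in the late library against the control, 101 and 127 in the early library against the control, 3 and 4 in late against early, 7 and 4 in the intervention library against the late library, and 72 and 74 in it against the control. With no CPM minimum the counts were 953 and 1982, 910 and 2641, 241 and 156, 515 and 303, and 1036 and 1319 in the same order. No paired analysis was possible because each group has 1 library.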
